A study of Saccharomyces cerevisiae with 6 samples.

Results

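The histone genes of Saccharomyces cerevisiae were described in cultures of strains IMF17 and IMX2109. The members were the 8 genes of the core histones H2A (HTA1, HTA2), H2B (HTB1, HTB2), H3 (HHT1, HHT2) and H4 (HHF1, HHF2), the gene of the H2A variant H2A.Z (HTZ1) and the gene of the linker histone H1 (HHO1), 10 of 5703 features in each table. The members were picked by gene name, with no threshold on measured values. IMF17 has its glycolytic genes on a neochromosome, an added synthetic chromosome, as their only source, whereas IMX2109 uses glycolytic genes of its native genome. The design text compares gene expression between them. Each strain was grown as 3 aerobic shake flask cultures (100 mL in a 500 mL flask) in selective minimal glucose medium and was sampled in mid-exponential phase at OD660 8. Per the labels' protocols the cultures of a strain go back to 1 freezer stock, so the replicates are cultures and not independently built strains. The sources used here list no further alleles of either strain, and each condition is 1 strain.

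Core histones form the protein spool around which nuclear DNA is wrapped, with H3 and H4 at its centre and H2A with H2B on its faces. In budding yeast each core histone is encoded by a pair of paralogs, and the genes lie as divergent neighbours, H2A beside H2B and H3 beside H4, sharing the DNA between their start codons. Their transcription peaks in S phase, when new DNA needs histones, and outside that window the HIR complex holds down all of them except HTA2 and HTB2. H2A.Z replaces H2A near promoters and is made through the cell cycle, and H1 binds the DNA that enters and leaves the spool. Yeast histone transcripts carry a poly(A) tail, so a library made from poly(A) RNA, as here, holds them.

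The tables name both H3 rows HHT1 and both H4 rows HHF1. One row of each name lies on chromosome 2, where the flanking genes are FLR1 and IPP1. The other lies on chromosome 14 between SIW14 and KTR5, which are the neighbours of HHT2 and HHF2 in the R64 reference annotation, and these rows are called HHT2 and HHF2 here. Over the coding sequence of R64, which is the S288C strain and not IMF17, the H3 paralogs differ at 28 of 411 bases, the H4 paralogs at 8 of 312, the H2A paralogs at 25 of 399 and the H2B paralogs at 48 of 396. The longest stretch shared without a difference is 74 bases for H3, 80 for H4, 65 for H2A and 35 for H2B. Reads that fall inside such a stretch can belong to either copy, and the sources used here do not say how they were treated, so the split between paralogs is less certain than their sum. The part of the H3 coding sequence with the most differences, bases 286 to 345, is shown to let the copies be told apart, with capitals at the 9 bases of 60 that differ (R64, HHT1 at chrII:256616-256675 on the plus strand, HHT2 at chrXIV:575706-575765 on the minus strand).
HHT1: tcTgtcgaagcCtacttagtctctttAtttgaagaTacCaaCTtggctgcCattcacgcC
HHT2: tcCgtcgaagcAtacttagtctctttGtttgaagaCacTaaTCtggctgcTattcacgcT

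The DNA shared by divergent neighbours was searched for an element known from yeast histone promoters, the core of the upstream activating sequence bound by Spt10, which is TTCC, 6 bases of any kind, TTC, 1 base of any kind and C, sought on both strands. All 4 stretches between the start codons of histone neighbours hold it, with 2 matches between HTB1 and HTA1 and 1 in each of the others. Among the 348 stretches of 600 to 900 bases between divergent genes of R64, the histone stretches included, 30 hold it (8.62%). It was in none of the members' windows from 250 bases before to 50 bases after the start codon, where 1.48% of 6001 windows hold it, because it lies 260 to 402 bases from the start codons. The longer stretches were searched after that result was seen. As the element is known from yeast histone promoters, its presence in the histone stretches is no independent support, and enrichment was not tested. The elements are shown with 20 bases on each side, capitals marking the match (R64, HTA1 and HTB1 at chrIV:915094-915171 plus strand, HTA2 and HTB2 at chrII:236088-236142 minus strand, HHT1 and HHF1 at chrII:255924-255978 minus strand, HHT2 and HHF2 at chrXIV:576326-576380 minus strand).
HTA1 and HTB1: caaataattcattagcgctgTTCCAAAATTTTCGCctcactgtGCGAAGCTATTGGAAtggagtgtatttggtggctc
HTA2 and HTB2: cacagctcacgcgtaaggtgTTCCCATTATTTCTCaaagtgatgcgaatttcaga
HHT1 and HHF1: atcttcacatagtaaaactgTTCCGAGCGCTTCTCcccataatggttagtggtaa
HHT2 and HHF2: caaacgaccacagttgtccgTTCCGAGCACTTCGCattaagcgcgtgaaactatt
The element of the G1/S factor SBF, CNCGAAA, was in 2 of the 4 histone stretches (29.6% of the 348) and, within the 300-base windows, in those of HTZ1 and HHO1 alone among the members (13.8% of 6001). The element of MBF, ACGCGT, was in 1 of the 4 stretches (8.33%), that of HTA2 and HTB2, and in no member window (3.07%). TATAAA was in 3 of the 4 stretches (74.1%) and in 5 of the 10 windows (45.2%).

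Counted reads per library ranged from 14999412 to 15914985 in IMF17 and from 14696540 to 18801158 in IMX2109, and each member had 1443 to 22175 reads in each library. Genes placed on the neochromosome took 15.0 to 15.7% of reads in IMF17 and 9.02 to 10.01% in IMX2109, whose reads were counted on the same gene models. The 2-micron plasmid gave 14854 to 15176 reads per IMF17 library, while none of 51549931 reads from IMX2109 fell on it (upper limit 5.82e-06%, for counting error only). IMX2109 replicate 3 stood furthest from its group. The squared differences of its counts from those of replicates 1 and 2 were 18.1 and 8.52 times those of sampling noise (chi-square over its degrees of freedom, across genes), against 3.15 to 7.22 for the other replicate pairs. Values are FPKM, fragments scaled to coding length and to all counted reads of the library, and genes on the nuclear chromosomes held 84.6 ± 0.323% of counted reads in IMF17, against 90.4 ± 0.519% in IMX2109 (SD over 3 libraries). This lowers the FPKM of a nuclear gene in IMF17 by construction. The calls of members and lists are therefore also given after rescaling by median ratio and after rescaling on nuclear reads.

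All 8 core histone genes were lower in IMF17, by 19.2 to 26.6%, and each kept its call under every scaling tried. HTZ1 and HHO1 were also lower, 1.14-fold and 1.13-fold, and neither passed the test after median-ratio or nuclear rescaling, while both did after conversion to TPM (limma adjusted p = 0.0141 for HTZ1 and 0.00428 for HHO1). On the deposited FPKM 10 of 10 members fell (limma, a linear model over all features on log2(FPKM + 1), adjusted p under 0.05), where 25.3% of the 5425 tested features fell. After median-ratio rescaling 8 of 10 fell against 11.8% of features, and after rescaling on nuclear reads 8 of 10 against 8.84%, the 8 core genes in both cases. The 3 IMF17 libraries lay below all 3 IMX2109 libraries for 9 of 10 members, all but HTZ1, and for 35.1% of the tested features. The median log2 fold change was -0.37 over the core genes and -0.07 over all tested features. It was -0.30 against -0.00 after median-ratio rescaling and -0.27 against 0.02 after nuclear rescaling. Of the 5425 tested features 275 (5.07%) had a log2 fold change at or below that of HTB1, the core gene with the smallest difference. In RNA from whole cultures, fewer cells in S phase and less histone RNA per cell cannot be told apart.

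**Figure D1:**
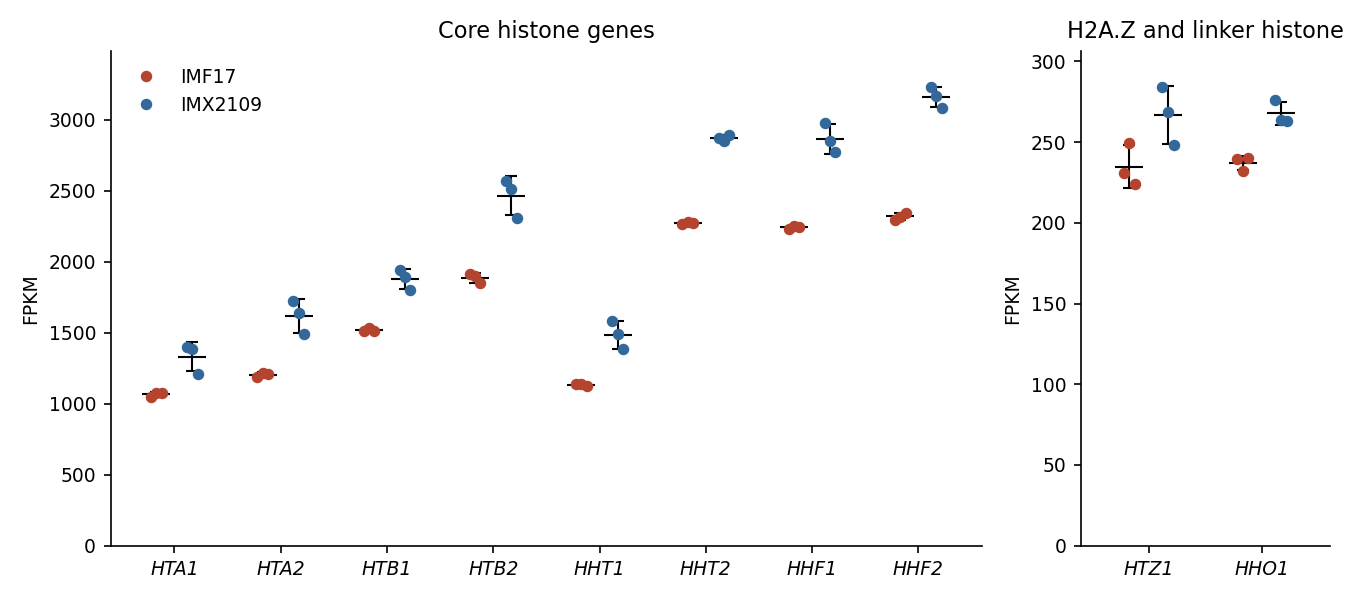
FPKM (y axis, from 0, linear) of each histone gene in the 3 IMF17 libraries (red, left of each pair) and the 3 IMX2109 libraries (blue), with mean and SD in black; the right panel has its own scale. For each of the 8 core genes all IMF17 points lie below all IMX2109 points, and for HTZ1 the strains overlap.

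H2A is the histone that H2A.Z replaces, and its genes were the lowest of the core set in FPKM together with HHT1. HTA1 on chromosome 4 (893377 to 893775 on the IMF17 assembly, plus strand) stood at 1046, 1072 and 1078 FPKM in IMF17, against 1399, 1381 and 1211 FPKM in IMX2109. Replicate 3 was the low one of IMX2109 and still lay above IMF17. HTA1 was 1.25-fold lower in IMF17 (log2 fold change -0.32 ± 0.05, SE; limma adjusted p = 0.000948). HTA2 on chromosome 2 (231270 to 231668, minus strand) stood at 1187, 1217 and 1209 FPKM in IMF17, against 1722, 1642 and 1491 FPKM in IMX2109. It was 1.34-fold lower (log2 fold change -0.42 ± 0.05; limma adjusted p = 8.56e-05), the second largest fall among the members.

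H2B carries the lysine that the ligase Bre1 marks with ubiquitin. HTB1, the divergent neighbour of HTA1 (892164 to 892559, minus strand), stood at 1510.2, 1532 and 1515 FPKM in IMF17, against 1943, 1891 and 1803 FPKM in IMX2109, 1.24-fold lower (log2 fold change -0.31 ± 0.04; limma adjusted p = 0.000143). HTB2, the neighbour of HTA2 (232367 to 232762, plus strand), stood at 1912, 1898 and 1847 FPKM in IMF17, against 2569.8, 2513 and 2309.5 FPKM in IMX2109. The difference was 1.31-fold (log2 fold change -0.38 ± 0.05; limma adjusted p = 8.16e-05). In both H2B genes the gap between the strains was wider than the range within either strain.

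H3, whose tail carries many of the acetyl and methyl marks of chromatin, came mostly from HHT2. HHT1 (chromosome 2, 252206 to 252616, plus strand) stood at 1137, 1139.9 and 1126 FPKM in IMF17, against 1578, 1489 and 1385 FPKM in IMX2109, 1.31-fold lower (log2 fold change -0.39 ± 0.05; limma adjusted p = 0.000104). HHT2 (chromosome 14, 576024 to 576434, minus strand) stood at 2264, 2279 and 2269.7 FPKM in IMF17, against 2869.7, 2850.5 and 2889.6 FPKM in IMX2109. It varied least of all members, by 0.345% in IMF17 and 0.682% in IMX2109 (SD over mean, n = 3), and was the core gene for which IMX2109 replicate 3 was not the lowest of its strain. HHT2 was 1.26-fold lower in IMF17 (log2 fold change -0.34 ± 0.03; limma adjusted p = 2.76e-05).

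H4 pairs with H3 in the centre of the nucleosome, and its genes, with HHT2, had the highest FPKM of the set. HHF1 (chromosome 2, 251247 to 251558, minus strand) stood at 2228, 2251 and 2243 FPKM in IMF17, against 2979, 2849.6 and 2769 FPKM in IMX2109, 1.28-fold lower (log2 fold change -0.35 ± 0.04; limma adjusted p = 4.96e-05). HHF2 (chromosome 14, 577111 to 577422, plus strand) stood at 2292, 2316 and 2346 FPKM in IMF17, against 3227, 3166 and 3084 FPKM in IMX2109. It fell most of the 10, 1.36-fold (log2 fold change -0.45 ± 0.04; limma adjusted p = 4.59e-06), and 62 tested features, HHF2 included, had a log2 fold change as low. By mean FPKM it ranked 41 of the 5703 features in IMF17 and 31 in IMX2109, the highest of the members in both.

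After rescaling on nuclear reads the core genes were lower by 0.21 (HTB1) to 0.35 (HHF2) on the log2 scale, with limma adjusted p from 7.32e-05 (HHF2) to 0.0133 (HTA1). After median-ratio rescaling they were lower by 0.24 (HTB1) to 0.38 (HHF2), with limma adjusted p from 0.000696 to 0.0235. Without IMX2109 replicate 3 the falls were 0.33 (HHT2) to 0.48 (HTA2) on the log2 scale. All 8 core genes were called lower in each of the 17 alternative settings, and their highest limma adjusted p over these was 0.0235.

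**Figure D2:**
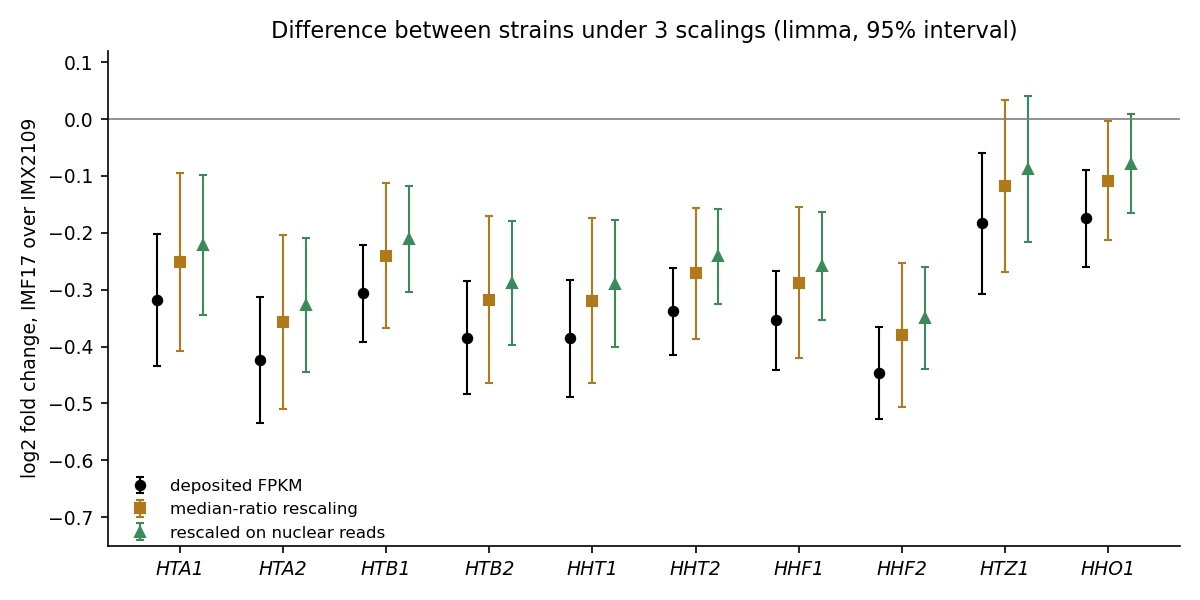
Log2 fold change of IMF17 over IMX2109 (y axis) with the 95% interval of the limma fit for each member, on the deposited FPKM (black circles), after median-ratio rescaling (orange squares) and after rescaling on nuclear reads (green triangles). The intervals of the core genes stay below 0 in all 3, those of HTZ1 cross 0 after both rescalings and that of HHO1 crosses 0 after nuclear rescaling.

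HTZ1 (chromosome 15, 300792 to 301196, minus strand), which encodes H2A.Z, stood at 231, 249.6 and 224 FPKM in IMF17, against 284, 269 and 248 FPKM in IMX2109. Replicate 2 of IMF17 lay above replicate 3 of IMX2109, so the strains overlapped. HTZ1 was 1.14-fold lower (log2 fold change -0.18 ± 0.06; limma adjusted p = 0.0251). The call was lost after median-ratio rescaling (log2 fold change -0.12; limma adjusted p = 0.223) and after nuclear rescaling (-0.09; limma adjusted p = 0.299), and it was also lost when IMF17 replicate 1 or 3 or IMX2109 replicate 1 or 2 was left out (limma adjusted p from 0.0764 to 0.0880). Over all 17 alternatives the adjusted p ran from 0.00729 to 0.299.

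HHO1 (chromosome 16, 317604 to 318380, minus strand), which encodes linker histone H1, stood at 239.6, 232 and 239.9 FPKM in IMF17, against 276, 264 and 263 FPKM in IMX2109, without overlap. It was 1.13-fold lower (log2 fold change -0.17 ± 0.04; limma adjusted p = 0.00492). After median-ratio rescaling the log2 fold change was -0.11 (limma adjusted p = 0.112) and after nuclear rescaling -0.08 (limma adjusted p = 0.168), out of a range of 0.00428 to 0.168 over the 17 alternatives. HTZ1 and HHO1 ranked 729 and 722 by FPKM in IMF17 and 671 and 668 in IMX2109, far below the core genes. Whether their change differs from that of the core genes was not tested.

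Summed over paralogs, all 4 core histone types were lower in IMF17 by similar factors, from 1.28-fold for H2B to 1.32-fold for H4. H2A summed to 2269.7 ± 31.6 FPKM in IMF17, against 2949 ± 219 FPKM in IMX2109 (SD over 3 libraries), and H2B to 3405 ± 37.4 FPKM in IMF17, against 4343 ± 207 FPKM in IMX2109. For H3 the sum was 3405 ± 12.1 FPKM in IMF17, against 4354 ± 87.6 FPKM in IMX2109, and for H4 it was 4559 ± 35.1 FPKM in IMF17, against 6025 ± 176 FPKM in IMX2109. In each type all IMF17 libraries lay below all IMX2109 libraries. The 8 genes together made up 1.403, 1.416 and 1.411% of the summed FPKM in IMF17, against 1.860, 1.838 and 1.785% in IMX2109. The summed level was 1.30-fold lower in IMF17, 1.24-fold lower after median-ratio rescaling and 1.21-fold lower after nuclear rescaling, again without overlap.

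**Figure D3:**
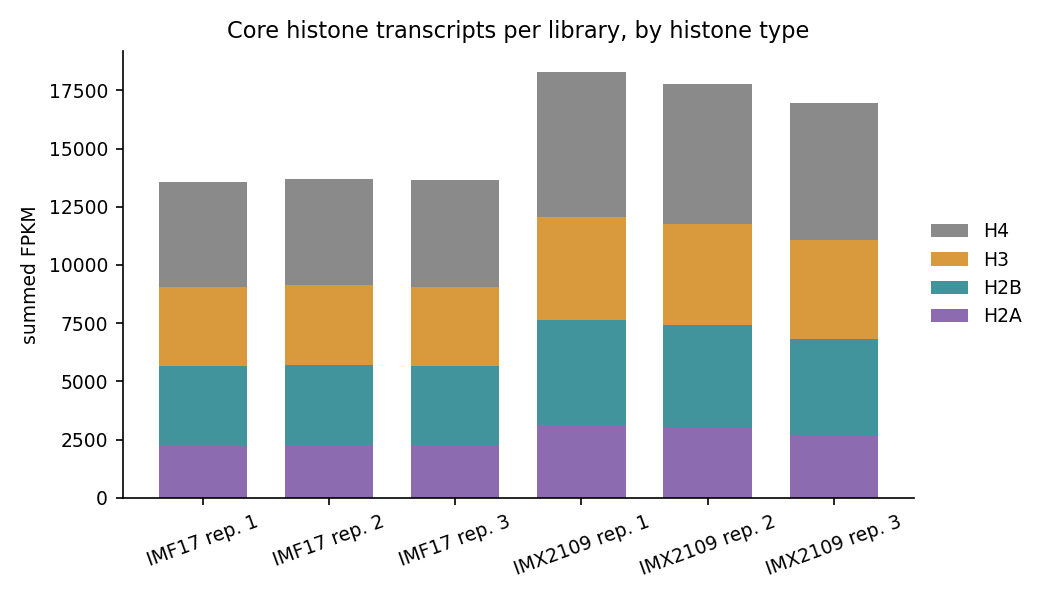
Summed FPKM of the core histone genes (y axis, from 0) in each library, stacked by histone type, IMF17 libraries on the left. The IMF17 bars reach 13577 to 13705 and the IMX2109 bars 16942 to 18287, with H4 the largest segment and H2A the smallest in all 6.

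The proportions between histone types were near each other in the strains. H2A transcripts stood at 0.667 ± 0.0139 of the H2B level in IMF17 and 0.678 ± 0.0185 in IMX2109, and the libraries overlapped. They also overlapped for H2A to H3, at 0.667 in IMF17 and 0.677 in IMX2109, and for H2A to H4, at 0.498 and 0.489. For H2B to H3, at 1.00 in IMF17 and 0.997 in IMX2109, the libraries overlapped as well. H3 stood at 0.747 ± 0.00631 of the H4 level in IMF17 and 0.723 ± 0.00690 in IMX2109, and H2B at 0.747 ± 0.0128 of the H4 level in IMF17 and 0.721 ± 0.0158 in IMX2109, both without overlap. These are ratios of FPKM, per coding length, and the sources used here do not say how reads in untranslated ends were counted, so they need not equal ratios of molecules.

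Ratios within a library are free of the scaling, and they were compared for 4 paralog pairs and 4 divergent pairs by a two-sided exact permutation test, whose smallest p with 3 against 3 is 0.1. In 3 of the 4 paralog pairs the more abundant copy of IMX2109 took a smaller share in IMF17. HTA2 made up 53.2, 53.2 and 52.9% of H2A in IMF17, against 55.2, 54.3 and 55.2% in IMX2109. HTB2 made up 55.9, 55.3 and 55.0% of H2B in IMF17, against 56.9, 57.1 and 56.2% in IMX2109. HHF2 made up 50.7, 50.7 and 51.1% of H4 in IMF17, against 52.0, 52.6 and 52.7% in IMX2109. The strains did not overlap in these 3 pairs (exact permutation p = 0.1 each, 0.2 after Benjamini-Hochberg adjustment over the 8 pairs), and the log2 ratios differed by 0.11, 0.08 and 0.09. HHT2 made up 66.7 ± 0.140% of H3 in IMF17 and 65.9 ± 1.56% in IMX2109 (SD, n = 3), with overlap (exact permutation p = 0.5).

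In 3 of the 4 divergent pairs the ratio between neighbours overlapped between the strains. The log2 ratio of HTA1 to HTB1 was -0.51 ± 0.02 in IMF17 and -0.50 ± 0.06 in IMX2109 (exact permutation p = 0.9). The ratio of HTA2 to HTB2 was -0.65 ± 0.04 in IMF17 and -0.61 ± 0.03 in IMX2109 (exact permutation p = 0.3), and that of HHT1 to HHF1 -0.98 ± 0.01 in IMF17 and -0.95 ± 0.04 in IMX2109 (exact permutation p = 0.4). The exception was HHT2 to HHF2, at -0.02, -0.02 and -0.05 in IMF17, against -0.17, -0.15 and -0.09 in IMX2109, without overlap (exact permutation p = 0.1, adjusted p = 0.2).

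**Figure D4:**
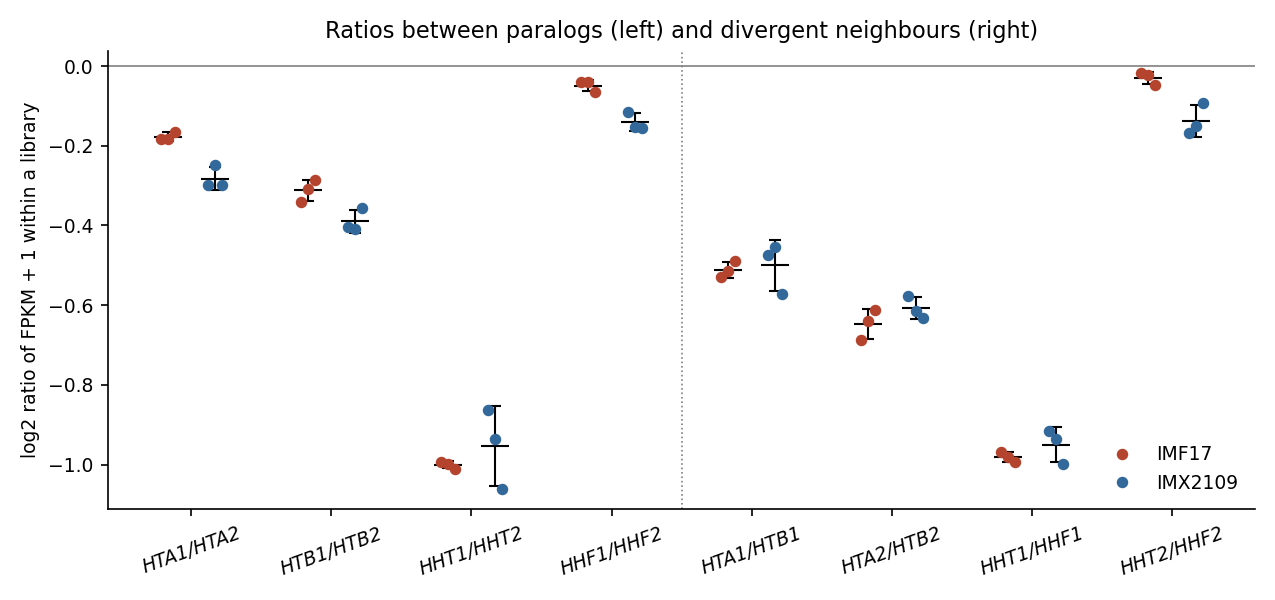
Log2 ratio of FPKM + 1 between a pair of histone genes within each library (y axis), paralogs left and divergent neighbours right of the dotted line, IMF17 in red left of IMX2109 in blue, with mean and SD in black. The strains separate for HTA1/HTA2, HTB1/HTB2, HHF1/HHF2 and HHT2/HHF2, by 0.11, 0.08, 0.09 and 0.11.

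Of 12 regulators of histone transcription 3 were lower, 0 higher and 9 not past the test (limma; 25.3% of all features lower and 12.1% higher), with a median log2 fold change of -0.10 beside -0.07 over all features. After either rescaling 2 of the 12 were lower and 0 higher, where 11.8% of features were lower and 16.3% higher after median-ratio rescaling, and 8.84% lower and 19.0% higher after nuclear rescaling. ASF1, a chaperone of H3 and H4 that also takes part in repression of histone genes, stood at 73.3, 79.4 and 76.5 FPKM in IMF17, against 92.8, 91.0 and 105 FPKM in IMX2109 (log2 fold change -0.33 ± 0.06; limma adjusted p = 0.0019). HPC2, a subunit of the HIR complex, averaged 31.3 ± 1.66 FPKM in IMF17, against 38.5 ± 2.31 FPKM in IMX2109 (log2 fold change -0.29; limma adjusted p = 0.00632), and both stayed lower after nuclear rescaling, HPC2 not so when IMX2109 replicate 3 was also left out (limma adjusted p = 0.0767). SWI4, the DNA-binding part of SBF, was at the edge (log2 fold change -0.19; limma adjusted p = 0.0475) and was not called after either rescaling, nor without any single library other than IMX2109 replicate 1. The other HIR subunits, SPT10, SPT21, RTT106, YTA7, SWI6 and MBP1 did not pass, SPT10 with 20.6 ± 1.20 FPKM in IMF17, against 20.8 ± 1.19 FPKM in IMX2109.

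Chaperones that carry and deposit histones had 6 of 15 lower and 0 higher (25.3% of all features lower), with a median log2 fold change of -0.15. After median-ratio rescaling 2 were lower and 0 higher (11.8% of features lower), and after nuclear rescaling 1 was lower (CHZ1) and 1 higher (NAP1), against 8.84% and 19.0% of features. CHZ1, a chaperone of H2A.Z with H2B, averaged 120.5 ± 7.60 FPKM in IMF17, against 149 ± 9.20 FPKM in IMX2109, 1.24-fold lower (log2 fold change -0.30; limma adjusted p = 0.00233), and remained lower after nuclear rescaling (log2 fold change -0.21; limma adjusted p = 0.0229). RLF2, the large subunit of the replication-coupled assembly factor CAF-1, was 1.19-fold lower (limma adjusted p = 0.00875), and the nucleosome-binding proteins NHP6A and NHP6B were 1.15-fold and 1.17-fold lower (limma adjusted p = 0.0108 and 0.0117). None of these 3 was called after nuclear rescaling, but without IMX2109 replicate 3 NHP6A (limma adjusted p = 0.0128) and NHP6B (0.0409) were. The FACT subunits SPT16 and POB3, which move histones aside for polymerases, did not pass. NAP1, a chaperone of H2A with H2B, had a log2 fold change of 0.04 on the deposited FPKM (limma adjusted p = 0.557) and 0.13 after nuclear rescaling (limma adjusted p = 0.0465).

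Genes of H2A.Z exchange had 4 of 16 lower and 0 higher, near the 25.3% of all features lower, with a median log2 fold change of -0.10. After either rescaling 1 was lower (BDF1) and 1 higher (SWC7), where 11.8% and 8.84% of features were lower and 16.3% and 19.0% higher. BDF1, a bromodomain protein that binds acetylated H4, was 1.26-fold lower, at 89.6, 89.1 and 89.1 FPKM in IMF17 against 104, 112 and 122 FPKM in IMX2109 (limma adjusted p = 0.0013), and remained lower after both rescalings. RVB1, RVB2 and ARP5 were 1.10-fold to 1.12-fold lower. They were not called after rescaling, nor without IMF17 replicate 1 or 2 (limma adjusted p from 0.0516 to 0.115), RVB1 also not without IMX2109 replicate 2 (0.0856) or 3 (0.0555), and ARP5 also not without IMF17 replicate 3 (0.0897) or IMX2109 replicate 1 (0.0547) or 2 (0.149). SWC7 had low levels, 9.63 ± 1.02 FPKM in IMF17 and 8.07 ± 1.15 FPKM in IMX2109. It did not pass on the deposited FPKM of all libraries (limma adjusted p = 0.128). SWC7 passed after either rescaling, after nuclear rescaling at the edge (limma adjusted p = 0.0493). Its strains overlapped on the deposited FPKM, with 8.45 in IMF17 replicate 1 and 9.38 in IMX2109 replicate 3. Without IMX2109 replicate 3, 1 gene of the list was higher on the deposited FPKM. SWR1, the ATPase that installs H2A.Z, did not pass. Among genes of histone protein turnover and of centromeric H3, 2 of 9 were lower and 1 higher (25.3% and 12.1% of all features), with a median log2 fold change of -0.11. After median-ratio rescaling 1 was lower and 1 higher (11.8% and 16.3% of all features), and after nuclear rescaling 0 were lower and 1 higher (8.84% and 19.0%). CSE4, the centromeric form of H3, averaged 43.3 ± 2.37 FPKM in IMF17, against 52.0 ± 2.30 FPKM in IMX2109 (log2 fold change -0.26; limma adjusted p = 0.00679), a call lost after nuclear rescaling (limma adjusted p = 0.0582). The ubiquitin-conjugating enzymes UBC4 and UBC5 went opposite ways, UBC4 1.12-fold lower (limma adjusted p = 0.00678) and UBC5 higher, with 63.4 ± 4.14 FPKM in IMF17, against 54.9 ± 1.83 FPKM in IMX2109 (log2 fold change 0.20; limma adjusted p = 0.0193). UBC4 was not called after either rescaling, and UBC5 was not called without IMF17 replicate 2 (limma adjusted p = 0.103). RAD53, a checkpoint kinase, did not pass. Of 20 genes of histone acetylation and methylation 6 were lower and 0 higher, near the 25.3% of all features lower, with a median log2 fold change of -0.10. After median-ratio rescaling 3 were lower (11.8% of features), and after nuclear rescaling BRE1 alone was (8.84% of features). BRE1 had a log2 fold change of -0.25 on the deposited FPKM (limma adjusted p = 0.0022). SET2, HOS2 and SAS2 were lower with limma adjusted p of 0.00746, 0.0153 and 0.0251 and were not called after nuclear rescaling. HOS2 was not called without IMF17 replicate 2 (limma adjusted p = 0.0653), nor SAS2 without IMF17 replicate 1 or 2 or IMX2109 replicate 2 or 3 (0.0541 to 0.104), and without IMX2109 replicate 3 the list had 3 lower.

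Transcripts of other cell cycle phases give the setting of the histone values. Of 17 features of 16 G1/S genes (CLN1 names 2 of them) 9 were lower and 0 higher (4 and 0 after either rescaling), where 25.3% of all features were lower (11.8% and 8.84% after median-ratio and nuclear rescaling), with a median log2 fold change of -0.15. The row named CLN1 on chromosome 4 was lower (log2 fold change -0.21; limma adjusted p = 0.00491). That on chromosome 13 did not pass (-0.08; limma adjusted p = 0.336). Which of them is CLN1 was not checked by gene neighbours. POL30, the sliding clamp of DNA polymerase, stood at 191, 194 and 195 FPKM in IMF17, against 235, 239 and 233 FPKM in IMX2109 (log2 fold change -0.28 ± 0.04; limma adjusted p = 0.000161). The S phase cyclin CLB6 was 1.36-fold lower, with 15.7 ± 1.10 FPKM in IMF17, against 21.3 ± 1.25 FPKM in IMX2109 (limma adjusted p = 0.00193), the G1 cyclin CLN2 1.14-fold lower (limma adjusted p = 0.00408, not called after nuclear rescaling) and the wall enzyme GAS1 1.15-fold lower (limma adjusted p = 0.000965, not called after median-ratio rescaling). Of all features 12.1% were higher on the deposited FPKM, 16.3% after median-ratio rescaling and 19.0% after nuclear rescaling. Of 10 G2/M genes 0 were lower and 1 higher on the deposited FPKM and after either rescaling, near or below these shares, with a median log2 fold change of -0.04. The one that was higher was the mitotic cyclin CLB1, at 138, 136 and 139 FPKM in IMF17 against 108, 113 and 119 FPKM in IMX2109 (log2 fold change 0.28; limma adjusted p = 0.00104). The cyclin CLB2 did not pass, with 59.8 ± 1.80 FPKM in IMF17, against 66.9 ± 4.92 FPKM in IMX2109, nor did ALK1 or SWI5. Of 12 M/G1 genes 10 were lower and 0 higher, 8 and 0 after median-ratio and 7 and 0 after nuclear rescaling, with a median log2 fold change of -0.26. The daughter-cell separation genes EGT2, DSE4, SCW11 and DSE1 were 1.43-fold, 1.41-fold, 1.30-fold and 1.30-fold lower (limma adjusted p from 3.55e-06 to 5.30e-05). What part cell cycle position has in the histone values was not tested.

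**Figure D5:**
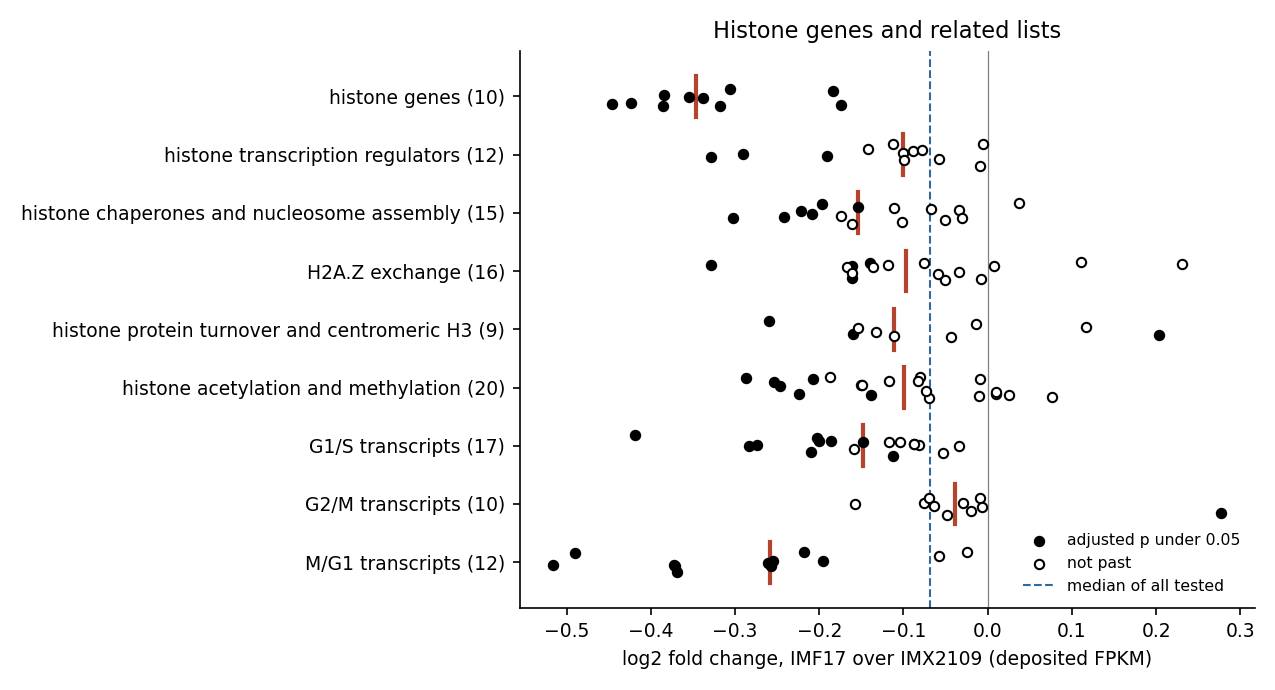
Log2 fold change of IMF17 over IMX2109 on the deposited FPKM (x axis) for the histone genes and 8 lists of related genes (number of features in brackets), filled where limma's adjusted p is under 0.05; the red bar is the list's median and the dashed line the median of all tested features. The histone genes lie from -0.45 to -0.17, with M/G1 genes the list whose median (-0.26) is nearest to theirs (-0.35).

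Outside the members, the features whose level over the 6 libraries was most like the mean of the core genes were PSA1, EFM5, LYS9, GUK1 and SAM1. Likeness was the root mean square difference of log2(FPKM + 1), each centred on its own mean, among 4955 features of at least 10 FPKM. It was 0.0229 for PSA1 to 0.0308 for SAM1, with a median of 0.172 over these features. For the core genes themselves it was 0.0148 (HHF1) to 0.0446 (HHT2). Each core gene is part of the core mean, which lowers its difference. PSA1 to SAM1 were picked as the nearest of the 4955 features, so these ranges are not comparable. PSA1 stood at 1552, 1549.8 and 1527 FPKM in IMF17, against 2071, 2062 and 1966 FPKM in IMX2109. The nearest to HTZ1 were TOM20, SEC61, DAL3, NHP6A and LSM1 (0.0295 to 0.0365), and the nearest to HHO1 were THR4, TOM70, MPA43, GZF3 and ECM33 (0.0102 to 0.0180).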

How the data were processed

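Poly(A) RNA of 6 cultures was sequenced from stranded mRNA libraries, per the labels' protocols. The deposited values are FPKM in 1 table per library, made by the authors. The submitters' processing notes name the tools edgeR, DESeq2, featureCounts, SAMtools and STAR (2.5.4a). Their roles and settings, and whether strand was used, are not stated in the sources at hand. Sequence names in the tables carry IMF17 for both strains, so IMX2109 reads were counted on IMF17 gene models. Whole reads were recovered from FPKM and length for 100% of values (tolerance 0.01 reads).

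Features with mean FPKM of at least 1 entered a limma (3.58.1, R 4.3.3) fit on log2(FPKM + 1), two-sided, trended prior variance, Benjamini-Hochberg adjustment over all 5425, threshold 0.05. The pseudocount shrinks log2 fold changes of low features; plain folds are ratios of mean FPKM. P-values measure the spread between cultures. Summed levels and lists got no test. Pair ratios were compared with scipy 1.17.1. Alternatives were other pseudocounts and filters, median-ratio, TPM and nuclear-read rescaling, robust variances, limma-voom on recovered reads, replicate number as a block, and each library left out in turn. The test was checked on simulated reads. They were drawn with the same spread in all libraries, without the strain difference in nuclear share and without an outlying library. Members and lists were chosen with earlier results of these data known. Named list genes were up to 4 of each list with the smallest p, those called against the list's median, and, chosen after their values were seen, SPT10, SPT16, POB3, SWR1, NAP1, SWC7 and the regulators that did not pass; likeness was ranked as stated. DNA sequences and gene neighbours come from RefSeq R64 (S288C), with all 10 members matched, and gene coordinates from the deposited tables.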

Additional observations from a re-analysis of the deposited data

How the results depend on the processing

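The 8 core histone genes were called lower in IMF17 in each of the 17 alternatives, HHO1 in 14 and HTZ1 in 10, and no member reversed. The count of members called lower was 8 after median-ratio rescaling and after nuclear-read rescaling with and without IMX2109 replicate 3, 9 to 10 when 1 library was left out and 10 under other pseudocounts, filters, TPM, robust variances and limma-voom. The count of all features lower was 1375, against 639 after median-ratio rescaling, 480 after nuclear-read rescaling and 562 after nuclear-read rescaling without IMX2109 replicate 3 (added after seeing the data, as this library stood apart), and the count higher was 654, against 882, 1033 and 1232; leaving out 1 library gave 939 to 1326 lower and 516 to 761 higher. Summed log2 ratios moved by more than their replicate SD: -0.31 (median ratio) and -0.28 (nuclear) for all core genes, against -0.37 as deposited, -0.29 and -0.26 for H2B, -0.29 and -0.26 for H3, -0.34 and -0.31 for H4, and -0.28 (nuclear) for H2A. These shifts follow from the rescaling factors.

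The replicate number was not used as a pairing in the main fit. Deviations of same-numbered libraries correlated at 0.0954, -0.0517 and 0.137. IMF17 replicates 1 and 2 did not correlate best with their own number, and replicate 3 did. For replicate 1 the values were near each other (0.0954, and 0.0961 with IMX2109 replicate 2). With 3 libraries per strain these correlations cannot exclude a pairing. With the replicate block 10 members, 1517 features lower and 685 higher were called. The difference in the HTA1/HTB1 log2 ratio, -0.01, ran from -0.0477 to 0.0123 when 1 library was left out, changing sign without IMX2109 replicate 1 (0.00178) or 2 (0.0123), and the other pair ratios kept their sign. Nuclear-read rescaling raised log2 fold changes by its factors, so slightly negative values could turn positive. Of genes that did not pass, ALK1 (0.0192 and, without IMX2109 replicate 3, 0.0330), SWI5 (0.0249 and 0.0405) and, without that library, RAD53 (0.0161) turned positive. Others did too, among them MBP1 (0.00453), SWI6 (0.0157), HIR1 (0.0351), SPT10 (0.0826), YTA7 (0.0877), SPT16 (0.0615) and POB3 (0.0651). Depth was lowest for HTZ1, at 1443 reads in 1 library, so its counting error is the largest among the members.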
